A study of Mus musculus with 8 samples.

Results

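The 2 delE6/+ libraries of mouse embryonic stem (ES) cells, in which 1 *Tbxt* allele lacks exon 6, were compared with the 2 delE6/delE6 libraries, in which both alleles lack it. These 4 libraries were taken from 8 by their genotype labels, and every gene that passed a filter on low counts was tested, 17049 genes in all, of which 848 lie on chromosome 3 and are shown apart. Every line was made from MK6 cells, which come from the C57BL/6J strain, and was grown without feeder cells before poly(A) RNA was taken at day 1 of a differentiation started by removing LIF and the inhibitors that hold ES cells in the naive state and then adding CHIR99021, an activator of Wnt signalling. The other 4 libraries are 2 of unedited cells (WT) and 2 of cells with an inserted pair of human Alu elements (Insert ASAY). The WT libraries are given beside the results as a reference, and the Insert ASAY libraries entered the fit with its filter, scaling and shared estimate of the spread between replicates but no comparison. The delE6/delE6 libraries come from different clones, whereas the number of clones behind the delE6/+ libraries is not given in the sources used here. With 2 libraries a genotype, p values rest on a spread between replicates estimated jointly from all 8 libraries. All genotypes share that spread, although the delE6/delE6 clones differed from each other more than other replicates did. The number of deleted alleles and any property of the sampled clones cannot be told apart.

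*Tbxt* encodes Brachyury, the T-box transcription factor that is switched on in the primitive streak and is needed for mesoderm, notochord and tail. ES cells leaving the naive state pass through a formative state, from which Wnt and Nodal signals direct them towards the streak and, in the absence of these signals, towards neural fates. The edit takes exon 6 out of the transcript with 8 exons. This exon has 174 bases, the length of 58 codons, and lies in the coding sequence on the plus strand of GRCm38 at chr17:8438616-8438789. The bounds of the deletion in the genome, which was made with a pair of guides, are not given here. The exon is printed here because it is the sequence whose number of copies the comparison is about. It is taken from the GENCODE M21 transcript, in lower case:
*Tbxt* exon 6: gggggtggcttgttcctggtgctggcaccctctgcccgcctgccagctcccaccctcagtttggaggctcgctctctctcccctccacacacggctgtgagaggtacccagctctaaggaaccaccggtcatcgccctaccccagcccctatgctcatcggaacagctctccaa
The deposited counts are per gene, so that transcripts with and without this exon are counted together.

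*Tbxt* itself was weakly expressed, with 26 and 22 reads in the delE6/delE6 libraries and 39 and 54 reads in the delE6/+ libraries. In CPM, counts normalized by TMM to a common library size, these were 1.05 and 0.807 against 1.48 and 2.21, and the WT libraries had 1.7 and 1.56. The 2 delE6 genotypes did not overlap, and the difference passed the test in the fit of all 8 libraries (log2 fold change 0.98, standard error 0.274, edgeR adjusted p = 0.0101 by the quasi-likelihood test with Benjamini-Hochberg adjustment). It did not pass with DESeq2, nor without delE6/+ replicate 2 or without delE6/delE6 replicate 2. The libraries held the transcripts that mark ES cells in large amounts. *Pou5f1* (Oct4) stood at 214 and 156 CPM in delE6/delE6 and 176 and 184 CPM in delE6/+, with overlapping libraries, against 295 and 282 in WT. Each library held 24618587 to 28445952 reads on genes. The 2 delE6/delE6 clones differed from each other more than the replicates of other genotypes did, with a chi-square per degree of freedom of 11.4 against 3.46 for delE6/+ and 3.47 for WT.

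Between the 2 genotypes, 3778 genes (22.2% of those tested) had an adjusted p below 0.05 and a change larger than 0.5 on the log2 scale, the rule by which genes are called throughout. Of these, 1907 (11.2%) were higher in delE6/+ and 1871 (11.0%) were lower, where positive values always mean higher in delE6/+. Without chromosome 3, 3442 of 16201 genes (21.2%) were called, 1656 higher (10.2%) and 1786 lower (11.0%). The 2 libraries of one genotype lay on the same side of both libraries of the other for 72.7% of all genes and for 72.4% of those outside chromosome 3. Differences past 1 on the log2 scale were found for 712 genes that were higher and 613 that were lower, and past 2 for 101 and 96. Set against the WT libraries, which both contrasts share, 13.5% of genes were called in delE6/+ (6.60% higher and 6.89% lower) and 12.7% in delE6/delE6 (6.12% higher and 6.59% lower). Called genes were most frequent at moderate abundance, with 33.7% of the 4612 genes between 1 and 10 CPM and 13.0% of the 2277 genes above 100 CPM. In bulk RNA a smaller number of cells of one kind and less RNA per cell cannot be told apart.

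The gene with the largest rise outside chromosome 3, among called genes whose libraries did not overlap and averaged 2 CPM or more, was *Cdkn1c* (chromosome 7, 143458339 to 143461050 of GRCm38), the imprinted inhibitor of cyclin-dependent kinases. It stood at 5.91 and 3.15 CPM in delE6/delE6 and 72.7 and 69.6 CPM in delE6/+, a 15.9-fold difference (log2 fold change 3.99, standard error 0.143, edgeR adjusted p = 3.18e-09). The delE6/+ libraries lay just below the WT libraries, at 77.1 and 76.8, and the delE6/delE6 libraries far below them. *Slc22a18*, its imprinted neighbour, was at 0.972 and 0.587 CPM in delE6/delE6 and 3.86 and 4.29 CPM in delE6/+ (log2 fold change 2.39, standard error 0.23, edgeR adjusted p = 3.85e-06), and the WT libraries were at 5.2 and 5.36. *Sdk2* (chromosome 11, 113776374 to 114067046), an adhesion molecule of the immunoglobulin superfamily that guides synaptic pairing, was at 9.38 and 6.81 CPM in WT, 3.89 and 2.68 CPM in delE6/delE6 and 37 and 33.5 CPM in delE6/+ (log2 fold change 3.44, standard error 0.165, edgeR adjusted p = 2.55e-08). Here WT lay between the 2 delE6 genotypes.

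*Fgfbp3*, which encodes a secreted protein that binds fibroblast growth factors (chromosome 19, 36917550 to 36919615), had the smallest adjusted p of any gene outside chromosome 3. Its libraries were at 25.8 and 22.6 CPM in WT, 37.1 and 35.4 CPM in delE6/delE6 and 170.4 and 172 CPM in delE6/+, a 4.73-fold difference (log2 fold change 2.24, standard error 0.0654, edgeR adjusted p = 4.08e-10), so that the delE6/+ libraries stood far above the other 4. *Crabp1*, a cytoplasmic carrier of retinoic acid, was at 13.6 and 14.4 CPM in WT, 9.84 and 7.52 CPM in delE6/delE6 and 54.2 and 42.1 CPM in delE6/+ (log2 fold change 2.48, standard error 0.137, edgeR adjusted p = 4.95e-08). The delE6/+ libraries were again the high ones. *Epha4*, an ephrin receptor, was at 1.78 and 1.5 CPM in delE6/delE6 and 7.84 and 7.64 CPM in delE6/+ (log2 fold change 2.24), *Maf*, a basic leucine zipper transcription factor, at 0.972 and 1.03 CPM in delE6/delE6 and 5.04 and 4.21 CPM in delE6/+ (2.21), and *Itih5*, which encodes a protein that binds hyaluronan, at 1.82 and 1.76 CPM in delE6/delE6 and 9.39 and 8.5 CPM in delE6/+ (2.32). Against WT these 3 were called higher in delE6/+, by 1.75, 1.91 and 1.82, and were not called in delE6/delE6. *Ildr2* (2.28) and *Myl3*, a myosin light chain (2.62), complete the 10.

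Among the 10 largest falls, *Plaur*, the receptor of urokinase (chromosome 7, 24462484 to 24475968), was the most abundant, at 81.8 and 92.5 CPM in delE6/delE6 and 12.9 and 14.5 CPM in delE6/+, a 6.36-fold difference (log2 fold change -2.67, standard error 0.102, edgeR adjusted p = 4.25e-09). Its WT libraries, at 65.5 and 70.1, lay nearer to delE6/delE6. *Sfn*, which encodes stratifin, a protein of stratified epithelia, was at 40.1 and 43 CPM in WT, 49.5 and 70.7 CPM in delE6/delE6 and 8.44 and 9.11 CPM in delE6/+ (log2 fold change -2.78, standard error 0.153, edgeR adjusted p = 4.94e-08). *Ngfr*, the p75 neurotrophin receptor, was at 16.5 and 20.9 CPM in WT, 38.1 and 60.9 CPM in delE6/delE6 and 5.53 and 5.07 CPM in delE6/+ (log2 fold change -3.23, standard error 0.204, edgeR adjusted p = 1.32e-07). It was called lower in delE6/+ than in WT (-1.82) and higher in delE6/delE6 than in WT (1.41), so that the genotypes moved away from WT in opposite directions. The same held for all of the 10 but *Plaur* and *Lgals3*, which were not called in delE6/delE6 against WT. The 10 were picked for the size of their fall between the genotypes, and both contrasts share the WT libraries. Such a choice favours genes on opposite sides of WT, so the pattern describes these genes and does not test anything. *H2-Aa*, a class II antigen-presenting molecule, was at 1.55 and 2.01 CPM in WT, 4.17 and 4.73 CPM in delE6/delE6 and 0.416 and 0.409 CPM in delE6/+ (-3.42), and *Filip1l* (-2.91) and *Oasl2*, a gene induced by interferon (-2.73), followed the same pattern. The 2 delE6/delE6 clones were unequal for several of them, as for *Anxa1*, which binds phospholipids, at 6.52 and 13.5 CPM, and for the lymphotoxin gene *Ltb*, at 4.29 and 8.29 CPM, but both clones stood above both delE6/+ libraries. *Lgals3* (galectin-3; -2.82) and *Gm44* (-2.65) are the other two.

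**Figure D1:**
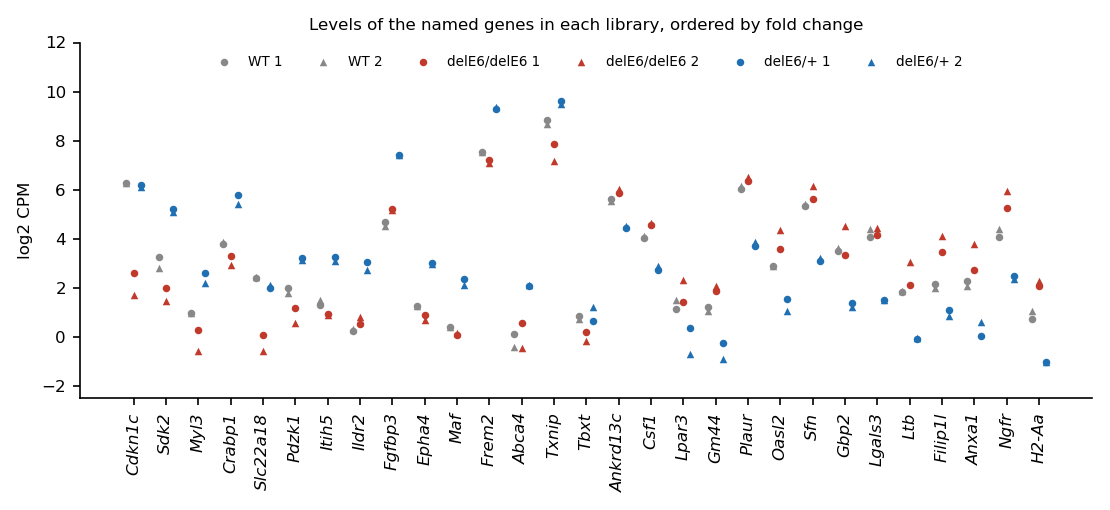
Levels (log2 CPM) of *Tbxt* and the genes with the largest rises and falls in the 2 WT (grey), 2 delE6/delE6 (red) and 2 delE6/+ (blue) libraries, ordered by fold change; circles are replicate 1 and triangles replicate 2. Blue points lie above red ones from *Cdkn1c* to *Tbxt* and below them from *Ankrd13c* to *H2-Aa*, and for *Cdkn1c* the blue points sit beside the grey ones whereas for *Plaur* the red ones do.

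Genes of epithelial junctions had the highest share of members called in one direction among all lists and families examined. Of the 21 listed genes, which make or regulate tight junctions, simple keratins and desmosomes, all 21 were tested, 16 were lower in delE6/+ (76.2%) and none was higher by edgeR, by DESeq2 or at an unadjusted p under 0.05, with a median log2 fold change of -0.833 against 0.00582 over all tested genes. For all 21 the libraries of the genotypes did not overlap (72.7% of all genes). *Cldn4*, a claudin of tight junctions (chromosome 5, 134945119 to 134946934), was at 770.1 and 808 CPM in WT, 725 and 768 CPM in delE6/delE6 and 302 and 325 CPM in delE6/+ (log2 fold change -1.25, standard error 0.053, edgeR adjusted p = 1.05e-08). *Cldn6* was at 202 and 219 CPM in WT, 189 and 224 CPM in delE6/delE6 and 59 and 63.8 CPM in delE6/+ (log2 fold change -1.75, standard error 0.0804, edgeR adjusted p = 1.95e-08). In both claudins delE6/delE6 was level with WT and delE6/+ was below both. *Krt8*, a keratin of simple epithelia, was at 179.5 and 189 CPM in WT, 194 and 313 CPM in delE6/delE6 and 64 and 67.3 CPM in delE6/+ (log2 fold change -1.95, standard error 0.154, edgeR adjusted p = 7.5e-07), and *Krt19* at 39.4 and 40.6 CPM in WT, 54 and 79.2 CPM in delE6/delE6 and 15.3 and 15.3 CPM in delE6/+ (log2 fold change -2.12, standard error 0.166, edgeR adjusted p = 7.04e-07). For the keratins the second delE6/delE6 clone was the highest library. *Cldn7* (-1.39), *Cldn3* (-1.21), *Ocln*, which encodes occludin (-0.83), *Grhl2*, a transcription factor of epithelial genes (-1.46), and the splicing factors *Esrp1* (-0.56) and *Esrp2* (-1.10) were also lower. E-cadherin (*Cdh1*) was at 675 and 651 CPM in delE6/delE6 and 469 and 529 CPM in delE6/+, a log2 fold change of -0.41 that did not pass the size threshold, and *Epcam* (-0.47) did not pass it either. Against WT, 13 of the 21 were called lower in delE6/+, and in delE6/delE6 5 were called higher and 1 lower. Without delE6/delE6 replicate 2 the count of lower genes was 13 and *Esrp1* (-0.46) was not called, whereas *Cdh1* (-0.50) and *Epcam* (-0.53) were called without delE6/+ replicate 2, and *Epcam* (-0.53) also without delE6/delE6 replicate 1.

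A list of the plasminogen activator system, annexins, S100A proteins and galectins was drawn up after values were seen, since several of the largest falls belong to these families. Of its 27 genes 25 were tested, 17 were lower and 3 higher, with a median of -0.663. *Lgals1* (galectin-1), which is far more abundant than *Lgals3*, had means of 413 CPM in WT, 398 CPM in delE6/delE6 and 189 CPM in delE6/+ (log2 fold change -1.07, standard error 0.0642, edgeR adjusted p = 8.75e-08), and *Anxa2* was at 65.9 and 68.2 CPM in WT, 104 and 154 CPM in delE6/delE6 and 41.9 and 44.8 CPM in delE6/+ (-1.57). Tissue plasminogen activator (*Plat*) was higher, at 7.12 and 6.31 CPM in delE6/delE6 and 17.8 and 18.2 CPM in delE6/+ (log2 fold change 1.43, standard error 0.107, edgeR adjusted p = 5.33e-07), and urokinase (*Plau*) was at 4.49 and 3.7 CPM in delE6/delE6 and 4.39 and 4.7 CPM in delE6/+ and not called. Of the 7 members on chromosome 3, 2 rose and 4 fell, among them *S100a13* (1.81) and *S100a10* (-0.85), and without chromosome 3 the median was -0.903. A list of genes that answer to interferon, also drawn up after values were seen, had 28 of 38 members tested. Of these, 9 were lower (32.1% against 11.0% of all genes) and 2 higher (7.14% against 11.2%), with a median of -0.284. The 3 tested members on chromosome 3 were all called lower, and without chromosome 3 the median was -0.193. *Irf1*, a transcription factor of the response, was at 26 and 25.7 CPM in WT, 28.8 and 39.8 CPM in delE6/delE6 and 13.4 and 15.6 CPM in delE6/+ (-1.24). *Gbp2*, *Gbp3* and *Gbp7*, which fell, lie beside each other on distal chromosome 3 and are similar in sequence, so that their separate values are uncertain. Without delE6/delE6 replicate 2, 6 of the interferon genes were called lower and 0 higher, and 1 was called higher without delE6/+ replicate 2. *Gbp7* was not called without delE6/+ replicate 1 (-0.80) or delE6/delE6 replicate 2 (-0.70).

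Of the 17 genes of FGF-ERK feedback and response, all tested, 9 were lower in delE6/+ and 1 was higher, with a median of -0.561. *Dusp5*, a nuclear phosphatase that acts on ERK, was at 52.4 and 51.1 CPM in WT, 69.9 and 76.8 CPM in delE6/delE6 and 25.9 and 24.5 CPM in delE6/+ (log2 fold change -1.54, standard error 0.075, edgeR adjusted p = 2.55e-08). The immediate early genes *Egr1* (-0.95), *Ier3* (-2.43) and *Fosl1* (-2.34) fell, as did *Phlda1* (-1.57) and, by less, the ETS factors *Etv4* (-0.59) and *Etv5* (-0.61). The inhibitor *Spry2* (-0.22) and the phosphatase *Dusp6* (-0.46) were not called, although *Dusp6* was without delE6/delE6 replicate 2 (-0.62). *Dusp4* was the exception and was higher, at 17.6 and 13.6 CPM in delE6/delE6 and 41.6 and 39.2 CPM in delE6/+ (log2 fold change 1.38, standard error 0.109, edgeR adjusted p = 8.02e-07). Against WT, 5 of the 17 were called lower and 1 higher in delE6/+, and 6 higher and none lower in delE6/delE6. *Myc*, which is listed among the Wnt targets, was at 7.4 and 8.82 CPM in WT, 13.5 and 16.3 CPM in delE6/delE6 and 3.41 and 3.06 CPM in delE6/+ (log2 fold change -2.20, standard error 0.153, edgeR adjusted p = 2.79e-07), with WT between the genotypes.

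Of the 16 tested genes of the Nodal and activin pathway (19 listed), 6 were lower in delE6/+ and none was higher by edgeR or DESeq2, with 3 higher at an unadjusted p under 0.05 and 1 called higher without delE6/delE6 replicate 1. The median was -0.27. *Nodal*, the ligand itself, was at 18.1 and 20.5 CPM in WT, 19.4 and 22.3 CPM in delE6/delE6 and 11.4 and 10.8 CPM in delE6/+ (log2 fold change -0.91, standard error 0.10, edgeR adjusted p = 1.18e-05), and its co-receptor *Tdgf1* (Cripto) at 45.7 and 47.4 CPM in WT, 28.2 and 24.5 CPM in delE6/delE6 and 9.01 and 10.5 CPM in delE6/+ (log2 fold change -1.44, standard error 0.0987, edgeR adjusted p = 2.55e-07). The antagonists that Nodal signalling induces were lower too, *Lefty2* at 8.1 and 11.3 CPM in delE6/delE6 and 3.1 and 3.19 CPM in delE6/+ (-1.62) and *Lefty1* at 19.6 and 30.7 CPM in delE6/delE6 and 7.69 and 8.91 CPM in delE6/+ (-1.61). Receptors and signal transducers were not called, among them *Acvr1b* (0.08), *Smad4* (0.03) and *Foxh1* (-0.00). The T-box gene *Eomes*, which Nodal switches on in the streak, was at 13.2 and 14.8 CPM in WT, 20.4 and 20.3 CPM in delE6/delE6 and 6.36 and 8.13 CPM in delE6/+ (log2 fold change -1.50, standard error 0.129, edgeR adjusted p = 1.5e-06). In the BMP response list, 3 of the 14 tested genes (15 listed) were higher and 4 lower, among them the inhibitor *Smad6* (0.87), which rose, and *Smad7* (-0.65), which fell. Without delE6/+ replicate 1, and with DESeq2, only 1 of the BMP genes was called higher.

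Genes of neural progenitors moved the other way. Of 25 listed genes 18 were tested, 10 were higher in delE6/+ and 3 were lower, with a median of 0.878. *Sox1*, the earliest marker of neural plate (chromosome 8, 12395295 to 12400126), was at 6.32 and 5.36 CPM in WT, 7.33 and 6.2 CPM in delE6/delE6 and 24.5 and 23.6 CPM in delE6/+ (log2 fold change 1.83, standard error 0.137, edgeR adjusted p = 5.13e-07), with delE6/+ above the other 4 libraries. *Ncam1*, the neural cell adhesion molecule, was at 13.5 and 11.5 CPM in WT, 15.2 and 9.39 CPM in delE6/delE6 and 44 and 43 CPM in delE6/+ (log2 fold change 1.83, standard error 0.154, edgeR adjusted p = 1.26e-06). *Pax6* was at 1.74 and 1.83 CPM in delE6/delE6 and 6.74 and 5.93 CPM in delE6/+ (1.82), *Zic1* at 1.5 and 1.36 CPM in delE6/delE6 and 4.73 and 5.76 CPM in delE6/+ (1.88) and *Irx3* at 6.32 and 4.88 CPM in delE6/delE6 and 15.8 and 14.5 CPM in delE6/+ (1.44), all transcription factors of the neural plate. *Sox3* (1.03) also rose, and so did *Sox2* (1.00), which lies on chromosome 3. The list was not uniform. *Tubb3*, a tubulin of young neurons, was at 32.1 and 34.5 CPM in delE6/delE6 and 14.3 and 16 CPM in delE6/+ (log2 fold change -1.14, standard error 0.0854, edgeR adjusted p = 5.21e-07), and *Nes*, the intermediate filament nestin on chromosome 3, at 136 and 186 CPM in delE6/delE6 and 68.2 and 68.2 CPM in delE6/+ (-1.24), and both were lower in delE6/+, as was *Neurog3* (-1.65), which was not called without delE6/delE6 replicate 2 (-0.65). Against WT, 9 were called higher and 1 lower in delE6/+, and 4 higher and 2 lower in delE6/delE6.

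Families of axon guidance and adhesion showed the same direction. Of 62 tested genes of ephrins, semaphorins, plexins, netrins, slits, robos and their receptors (69 in the family list), 31 were higher, against 11.2% of all genes, and 2 lower, with a median of 0.535, and 28 of the 31 lie outside chromosome 3. *Ntn1*, the netrin of the ventral neural tube, was at 11.2 and 10.2 CPM in WT, 7.81 and 7.04 CPM in delE6/delE6 and 32.1 and 27.8 CPM in delE6/+ (log2 fold change 2.01, standard error 0.111, edgeR adjusted p = 4.94e-08), and *Efnb1*, an ephrin ligand, at 25.3 and 22.8 CPM in WT, 19.4 and 19.4 CPM in delE6/delE6 and 53.4 and 53.8 CPM in delE6/+ (log2 fold change 1.46, standard error 0.0726, edgeR adjusted p = 2.71e-08). *Slit1* (1.94) and *Sema5b* (1.21) rose as well. *Epha2* was the exception among the abundant members, at 109 and 114 CPM in WT, 119.8 and 106 CPM in delE6/delE6 and 39.1 and 43.5 CPM in delE6/+ (log2 fold change -1.45, standard error 0.0703, edgeR adjusted p = 2.55e-08), and *Sema3c* (-1.01) also fell. Against WT, 15 of the family were called higher and 2 lower in delE6/+, and none higher and 12 lower in delE6/delE6. Of 41 tested cadherins and protocadherins (91 listed), 17 were higher (41.5% against 11.2% of all genes) and 1 lower (2.44% against 11.0%), with a median of 0.71. Their summed level went the other way, at 843.4 and 828.5 CPM in delE6/delE6 and 710.4 and 776.2 CPM in delE6/+. The number of higher genes was 11 when either delE6/+ library was left out and 7 with DESeq2, and the number lower was 2 without delE6/+ replicate 2 and 0 without delE6/delE6 replicate 2. N-cadherin (*Cdh2*) was at 23.4 and 20.9 CPM in WT, 21.5 and 24.7 CPM in delE6/delE6 and 41.1 and 41.6 CPM in delE6/+ (log2 fold change 0.84, standard error 0.0851, edgeR adjusted p = 6.17e-06). The protocadherins of the gamma cluster share their last exons, and their separate values are uncertain. Of 71 collagens, laminins and integrins (89 listed), 23 were higher and 7 lower, with a median of 0.295, and *Lama1*, a chain of basement membrane laminin, was at 18 and 20.6 CPM in WT, 14.3 and 10.8 CPM in delE6/delE6 and 30.6 and 34.9 CPM in delE6/+ (log2 fold change 1.39, standard error 0.121, edgeR adjusted p = 1.69e-06). Against WT, 7 of the 71 were called higher and 18 lower in delE6/+, and 1 higher and 27 lower in delE6/delE6, with medians of -0.18 and -0.46, so that more members lay below WT than above it in each genotype.

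**Figure D2:**
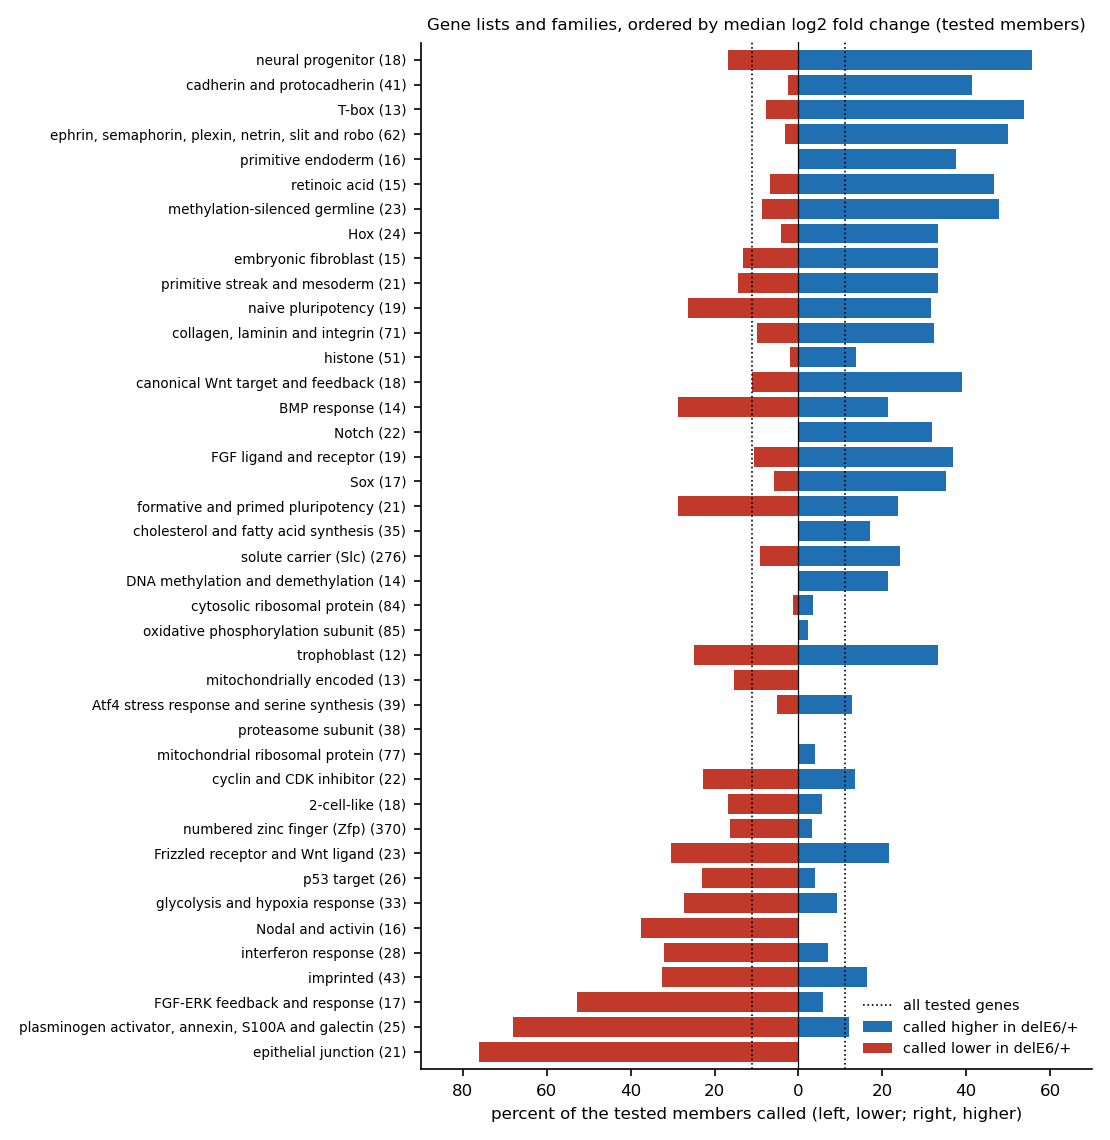
Percent of the tested members of each list or family called higher (blue, to the right) and lower (red, to the left) in delE6/+, with the number tested in brackets, ordered by the median log2 fold change. The dotted lines mark the shares over all tested genes, 11.2% higher and 11.0% lower; epithelial junction genes reach 76.2% lower at the bottom and neural progenitor genes 55.6% higher at the top.

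In the retinoic acid pathway 7 of 15 tested genes (16 listed) were higher and 1 was lower, with a median of 0.464. *Stra6*, the receptor that takes up retinol, was at 11.7 and 10.2 CPM in WT, 11.6 and 11.3 CPM in delE6/delE6 and 35.9 and 39.3 CPM in delE6/+ (log2 fold change 1.71, standard error 0.0938, edgeR adjusted p = 4.94e-08). The binding protein *Crabp2*, on chromosome 3, was at 9.07 and 10.4 CPM in delE6/delE6 and 26.7 and 21.7 CPM in delE6/+ (1.31) and the receptor *Rarb* at 2.71 and 2.93 CPM in delE6/delE6 and 6.25 and 5.11 CPM in delE6/+ (1.01), whereas the enzyme that makes retinoic acid in the embryo, *Aldh1a2*, was not called (-0.19). Without delE6/delE6 replicate 2 the number of higher genes was 4. In the Notch pathway 7 of 22 (23 listed) were higher and none lower by edgeR or DESeq2 (2 at an unadjusted p under 0.05, and 1 called without delE6/+ replicate 1), with a median of 0.191. The ligand *Dll1* was at 38.7 and 45 CPM in WT, 21.4 and 17.3 CPM in delE6/delE6 and 52.9 and 59.1 CPM in delE6/+ (log2 fold change 1.53, standard error 0.102, edgeR adjusted p = 2.01e-07), the target *Hes1*, a transcriptional repressor, at 6.68 and 8.29 CPM in delE6/delE6 and 17.7 and 16.8 CPM in delE6/+ (1.20), and *Jag1* at 2.79 and 2.9 CPM in delE6/delE6 and 4.81 and 6.13 CPM in delE6/+ (0.94). *Notch2* (0.73) and the co-activator *Maml3* (1.63) rose too and lie on chromosome 3, and *Notch1* (0.07) was not called. Among canonical Wnt targets and feedback genes 7 of 18 (19 listed) were higher and 2 lower, with a median of 0.222. The receptor *Tnfrsf19* was at 67 and 61.2 CPM in WT, 73.8 and 80.0 CPM in delE6/delE6 and 157 and 168 CPM in delE6/+ (log2 fold change 1.08, standard error 0.0627, edgeR adjusted p = 6.96e-08), and the feedback inhibitor *Nkd1* at 13.6 and 14.1 CPM in delE6/delE6 and 30.2 and 25.5 CPM in delE6/+ (1.00), whereas *Axin2* was at 30.7 and 42.5 CPM in delE6/delE6 and 47.5 and 45.3 CPM in delE6/+ and did not pass the size threshold (0.34). Without delE6/+ replicate 2 the number of higher Wnt genes was 4. Without delE6/delE6 replicate 2 the number lower was 1, and *Axin2* was called higher (0.59).

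Genes of the primitive streak and mesoderm, the tissue in which *Tbxt* acts, did not move as a block. Of 30 listed genes 21 were tested, 7 were higher and 3 lower in delE6/+, with a median of 0.347. *Dll1* and *Wnt8a*, a Wnt ligand at 14.6 and 10.5 CPM in delE6/delE6 and 23.5 and 26.7 CPM in delE6/+ (log2 fold change 1.00, standard error 0.135, edgeR adjusted p = 5.64e-05), rose, as did *Cdx2*, a caudal-type factor at 0.324 and 0.11 CPM in delE6/delE6 and 2.04 and 1.68 CPM in delE6/+ (3.11), and *Fgf8* at 1.22 and 0.807 CPM in delE6/delE6 and 2.46 and 2.82 CPM in delE6/+ (1.39). *Eomes* and *Sp5* (-1.10) fell, and *Mixl1*, at 0.324 and 0.954 CPM in delE6/delE6 and 0.265 and 0.245 CPM in delE6/+, was not called, except without delE6/delE6 replicate 1 (-1.89) or without the filter on low counts (-1.34). *Sp5* was not called without delE6/delE6 replicate 2 (-0.45). The count of higher genes was 4 without delE6/+ replicate 1 or without delE6/delE6 replicate 2. In the T-box family 7 of 13 tested genes (17 listed) were higher and 1 lower, but without delE6/delE6 replicate 2 only 1 was called higher, and 3 were when either delE6/+ library was left out or with DESeq2. In the Hox family 8 of 24 (39 listed) were higher and 1 lower, with 3 higher without delE6/delE6 replicate 2, 4 without delE6/+ replicate 1 and 5 with DESeq2, and 0 lower with DESeq2 or when any library but delE6/delE6 replicate 1 was left out. In the Frizzled and Wnt ligand family 5 of 23 (29 listed) were higher and 7 lower, with 2 lower without delE6/+ replicate 1 and 4 without delE6/+ replicate 2 or delE6/delE6 replicate 2 or with DESeq2. In the FGF family 7 of 19 (29 listed) were higher and 2 lower, with 3 higher without delE6/delE6 replicate 2 and 4 without delE6/+ replicate 2, and with 4 lower without delE6/+ replicate 2 and 1 without delE6/+ replicate 1 or with DESeq2. Its receptor *Fgfr2* was at 6.82 and 6.25 CPM in WT, 5.55 and 5.46 CPM in delE6/delE6 and 17.7 and 17.7 CPM in delE6/+ (log2 fold change 1.69, standard error 0.108, edgeR adjusted p = 1.39e-07). In the Sox family 6 of 17 (19 listed) were higher and 1 lower (0 without delE6/+ replicate 2 or with DESeq2, and 2 without delE6/delE6 replicate 1), and *Sox11* was at 45.9 and 43.2 CPM in WT, 45.9 and 45.2 CPM in delE6/delE6 and 83.8 and 78.4 CPM in delE6/+ (log2 fold change 0.83, standard error 0.0605, edgeR adjusted p = 4.07e-07).

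Naive pluripotency genes split. All 19 were tested, 6 were higher and 5 lower, with a median of 0.314. *Esrrb*, a nuclear receptor of the naive network, was at 58.7 and 58.9 CPM in WT, 31.1 and 26.2 CPM in delE6/delE6 and 52.8 and 55.6 CPM in delE6/+ (log2 fold change 0.92, standard error 0.0767, edgeR adjusted p = 1.16e-06), so that delE6/+ was near WT and delE6/delE6 below it, and *Tbx3* (1.15) and *Stat3* (0.60) were also higher. *Nr0b1* (-0.75), *Zfp42* (-0.53), *Klf2* (-0.52) and *Klf4* (-0.54) were lower, and *Nanog*, at 21.1 and 13.8 CPM in delE6/delE6 and 21.7 and 19.5 CPM in delE6/+, was not called. Against WT, 11 of the 19 were called lower in each genotype. Without delE6/+ replicate 1 the number of naive genes lower in delE6/+ was 2, and without delE6/+ replicate 2 or delE6/delE6 replicate 2 it was 3. The number higher was 9 without delE6/delE6 replicate 1, where *Nanog* was called (0.57), and 4 without delE6/delE6 replicate 2, where *Stat3* was not (0.48). The calls of *Nr0b1* (-0.59) and *Klf2* (-0.45) were lost without delE6/+ replicate 1, and that of *Klf4* without delE6/+ replicate 2 (-0.42) or delE6/delE6 replicate 2 (-0.47). Formative and primed genes split likewise, with 5 of 21 higher and 6 lower and a median of 0.142. Genes of 2-cell-like cells, which are rare in ES cultures, had 15 of 18 tested members called lower than WT in delE6/+ and 14 in delE6/delE6, and 3 lower and 1 higher between the genotypes (22.2% called, as over all genes). The number lower was 1 without delE6/+ replicate 2, and the number higher was 0 with DESeq2 and when any library but delE6/delE6 replicate 1 was left out. Many of them are near-identical copies, and their separate values are uncertain.

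Imprinted genes, of which the cell normally uses 1 parental copy, were called in 21 of 43 tested cases (46 listed), 7 higher and 14 lower in delE6/+, with a median of -0.298. Against WT, 18 were called higher and 7 lower in delE6/delE6, and 6 higher and 3 lower in delE6/+. Of the 43, 37 were divided after values were seen by the copy normally expressed, 12 maternal and 25 paternal. The maternal genes had 5 of 12 higher in delE6/+ and 4 lower, with a median of 0.0515. Of the 5, 4 lie on chromosome 7 and belong to the cluster around *Cdkn1c*. *Phlda2*, which restrains placental growth, was at 60.1 and 68.1 CPM in WT, 17.5 and 14.3 CPM in delE6/delE6 and 44.1 and 46.2 CPM in delE6/+ (log2 fold change 1.51, standard error 0.096, edgeR adjusted p = 1.35e-07). *Kcnq1*, a potassium channel of that cluster that is expressed from the maternal copy and is not in the list, was called higher on 2 and 1 reads in delE6/delE6 and is given no fold, and *Kcnq1ot1*, the non-coding RNA of the cluster, was at 13.6 and 10.8 CPM in delE6/delE6 and 15 and 17 CPM in delE6/+ and was not called, except without delE6/delE6 replicate 1 (0.56). The other higher maternal gene, *Igf2r* on chromosome 17, was at 413 and 430.2 CPM in WT, 229.8 and 191 CPM in delE6/delE6 and 339 and 369 CPM in delE6/+ (0.75). The 4 lower maternal genes were the non-coding RNAs *H19* (-0.50), *Meg3* (-0.71), *Mirg* (-1.32) and *Rian*. *Rian* was at 146 and 147 CPM in WT, 347 and 393 CPM in delE6/delE6 and 146 and 158 CPM in delE6/+ (log2 fold change -1.29, standard error 0.0612, edgeR adjusted p = 2.51e-08), so that delE6/+ was level with WT. *H19* was instead raised in both genotypes, at 36.6 and 41.5 CPM in WT, 118 and 193 CPM in delE6/delE6 and 106 and 115 CPM in delE6/+. Its difference between the genotypes lay at the size threshold and was not called when any library but delE6/delE6 replicate 1 was left out (-0.56 to -0.11), nor with DESeq2 (-0.50), with unstranded counts (-0.47) or with the replicate number as a block (-0.49).

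Of the 25 genes normally expressed from the paternal copy, 2 were higher and 9 lower in delE6/+, with a median of -0.34. Their median against WT was 0.158 in delE6/+ and 0.603 in delE6/delE6. *Peg10*, a gene derived from a retrotransposon and needed in placenta, was at 648 and 654 CPM in WT, 1127 and 1288 CPM in delE6/delE6 and 726 and 725 CPM in delE6/+ (log2 fold change -0.73, standard error 0.0603, edgeR adjusted p = 1.05e-06). *Zdbf2* was at 36.3 and 35.5 CPM in WT, 73.7 and 111 CPM in delE6/delE6 and 40.9 and 40.1 CPM in delE6/+ (-1.20), *Nnat*, which encodes neuronatin, at 29.8 and 26.6 CPM in WT, 59.8 and 73.5 CPM in delE6/delE6 and 34.3 and 34.7 CPM in delE6/+ (-0.95), and *Impact* at 202 and 189 CPM in WT, 366 and 405 CPM in delE6/delE6 and 257 and 253 CPM in delE6/+ (-0.60). In each of these both delE6/delE6 clones lay above WT, and the delE6/+ libraries lay between WT and the clones. *Igf2*, an insulin-like growth factor, was one of the 2 that were higher, at 51.1 and 59.2 CPM in WT, 28.9 and 29.1 CPM in delE6/delE6 and 53.5 and 47.1 CPM in delE6/+ (0.80), with delE6/delE6 below WT. Enzymes that write, read or remove DNA methylation had 3 of 14 genes higher (21.4% against 11.2% of all genes) and none lower by edgeR or DESeq2 (against 11.0% of all genes). In either direction 21.4% were called, against 22.2% of all genes. At an unadjusted edgeR p under 0.05, 2 were lower. Calls of lower appeared when delE6/+ replicate 2 or delE6/delE6 replicate 2 was left out. *Tet2* (1.46) and the histone methyltransferase *Setdb1* (0.57) lie on chromosome 3, and *Uhrf2* (0.65) does not.

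**Figure D3:**
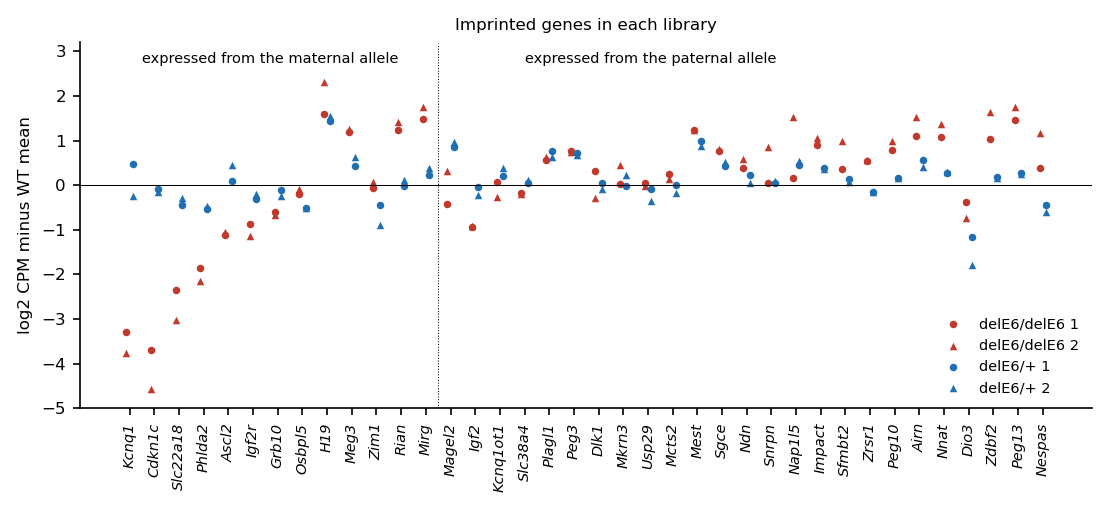
The 37 divided imprinted genes and *Kcnq1*, as log2 CPM (prior count of 2) minus the WT mean in the 2 delE6/delE6 (red) and 2 delE6/+ (blue) libraries; circles are replicate 1, triangles replicate 2, and 0 is WT. Maternal genes are on the left and paternal genes on the right; red points lie far below 0 for *Kcnq1* (2 and 1 reads in delE6/delE6) and *Cdkn1c*, and above blue points for *Zdbf2*, *Peg13* and *Nespas* at the right end.

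Genes of glycolysis and the hypoxia response were lower in 9 and higher in 3 of 33 cases, with a median of -0.227. *Pdk1*, the kinase that keeps pyruvate from the mitochondrion, was at 224 and 231 CPM in WT, 409.8 and 498 CPM in delE6/delE6 and 208 and 219 CPM in delE6/+ (log2 fold change -1.09, standard error 0.0729, edgeR adjusted p = 2.02e-07). *Ldha*, lactate dehydrogenase, was at 459.6 and 459.7 CPM in WT, 674 and 954 CPM in delE6/delE6 and 436 and 453 CPM in delE6/+ (-0.87), and the enzymes *Tpi1* (-0.84), *Aldoa* (-0.64) and *Hk2* (-0.62) fell too. For *Pdk1* and *Ldha* delE6/+ was slightly below WT and delE6/delE6 above it. The glucose transporter *Slc2a3* went the other way, at 1619 and 1600.0 CPM in WT, 1262 and 890.1 CPM in delE6/delE6 and 2247 and 2398 CPM in delE6/+ (log2 fold change 1.11, standard error 0.112, edgeR adjusted p = 6.05e-06). Targets of p53 were lower in 6 of 26 cases (23.1% against 11.0% of all genes) and higher in 1 (3.85% against 11.2%), with a median of -0.191. In either direction 26.9% were called, near the 22.2% of all genes. *Cdkn1a* (p21) was at 238 and 246 CPM in WT, 308 and 285 CPM in delE6/delE6 and 157 and 163 CPM in delE6/+ (log2 fold change -0.89, standard error 0.049, edgeR adjusted p = 4.94e-08), and *Plk2* (-1.03), *Mdm2* (-0.63) and *Trp53* itself (-0.51) were also lower, whereas *Sesn1* was higher (0.90). Without delE6/delE6 replicate 1 the number higher was 2, and *Trp53* was not called without delE6/+ replicate 2 (-0.49) or delE6/delE6 replicate 2 (-0.40). Among 22 cyclins and CDK inhibitors 3 were higher (13.6% against 11.2% of all genes) and 5 lower (22.7% against 11.0%).

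The large housekeeping classes had few called genes and small medians. Of 84 cytosolic ribosomal protein genes 3 were higher and 1 lower, of 77 tested mitochondrial ribosomal protein genes (78 listed) 3 were higher and none lower (29 at an unadjusted p under 0.05), of 85 oxidative phosphorylation subunits (87 listed) 2 were higher and none lower (10 at an unadjusted p under 0.05), and of 38 tested proteasome subunits (39 listed) none was called, all far below the 22.2% of all genes. Their medians were 0.103, -0.0995, 0.094 and -0.0713. In the same order, 73 of 84, 28 of 77, 60 of 85 and 12 of 38 log2 fold changes were positive, so small shifts below the size threshold remained. Of the proteasome genes 7 were higher and 13 lower at an unadjusted edgeR p under 0.05, and DESeq2 called none of them. DESeq2 also called no mitochondrial ribosomal or oxidative phosphorylation gene lower. The 3 higher cytosolic genes *Rps27* (0.63), *Rps3a1* (0.51) and *Rpl34* (0.63), the 3 higher mitochondrial ones *Mrpl24* (0.79), *Mrpl9* (0.61) and *Mrps21* (0.52), and the ATP synthase subunit *Atp5f1* (0.70) all lie on chromosome 3. *Rps3a1* was not called without delE6/+ replicate 1 or delE6/delE6 replicate 2 (0.48 in both), nor *Mrps21* without delE6/+ replicate 1 or delE6/delE6 replicate 1 (0.49 in both). Without delE6/delE6 replicate 1 there were 0 lower cytosolic and 4 lower mitochondrial ribosomal genes, 4 higher and 1 lower oxidative phosphorylation genes and 1 higher proteasome gene. Leaving out each other library gave 1 lower mitochondrial ribosomal gene, without delE6/+ replicate 1 there was 1 higher proteasome gene, and without delE6/+ replicate 2 there were 0 lower cytosolic genes. Lipid synthesis genes were higher in 6 of 35 cases (17.1% against 11.2% of all genes) and lower in none by edgeR or DESeq2 (against 11.0% of all genes). In either direction 17.1% were called, against 22.2% of all genes. Of the lipid genes 10 were lower at an unadjusted edgeR p under 0.05, and a call of lower appeared when delE6/delE6 replicate 1 was left out. *Insig1*, which restrains the activation of sterol synthesis, was at 265 and 258 CPM in WT, 183 and 148 CPM in delE6/delE6 and 314 and 318 CPM in delE6/+ (log2 fold change 0.94, standard error 0.0743, edgeR adjusted p = 8.02e-07). In the list of the Atf4 stress response and serine synthesis 5 of 39 were higher (12.8% against 11.2% of all genes) and 2 lower (5.13% against 11.0%). In either direction 17.9% were called, against 22.2% of all genes, and the median was 0.0135. On chromosome 3, 4 of them were tested, with 1 higher and 1 lower. Fewer were called higher without delE6/delE6 replicate 2, and more were called each way without replicate 1 of that genotype.

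Markers of other cell types that an ES culture could hold were read beside these classes. The summed level of the trophoblast list was 427 and 606 CPM in delE6/delE6, 210.4 and 221 CPM in delE6/+ and 427 and 456 CPM in WT, and most of it comes from *Krt8* and *Krt18*, which are also epithelial junction genes. Of the 15 listed genes *Elf5*, *Prl3d1* and *Tpbpa* had 0 reads in all 4 delE6 libraries, and the other 12 were read. Among these *Esx1* had 356 to 587 reads in the 4 libraries, *Tfap2c* 158 to 300 and *Hand1* 47 to 67, and *Cdx2* had 8 and 3 in delE6/delE6 and 54 and 41 in delE6/+. Of its 12 tested genes (15 listed) 4 were higher and 3 lower in delE6/+. Primitive endoderm genes summed to 1640 and 1500 CPM in delE6/delE6, 1823 and 2012 CPM in delE6/+ and 2011 and 2150 CPM in WT, with 6 of 16 tested genes (19 listed) higher and none lower by edgeR or DESeq2 (2 at an unadjusted p under 0.05). The 6 encode mostly basement membrane chains, such as *Col4a2* (0.88), and 1 of the 19 listed genes, *Ttr*, a product of visceral endoderm, had 0 reads. The transcription factors of the lineage were present, *Gata4* with 141 to 207 reads and *Gata6* with 25 to 52 reads in the 4 delE6 libraries. Without delE6/+ replicate 2 or delE6/delE6 replicate 2 the number higher was 4, and without delE6/+ replicate 1 or delE6/delE6 replicate 2 the number lower was 1. Embryonic fibroblast genes summed to 1225 and 1080 CPM in delE6/delE6 and 1269 and 1296 CPM in delE6/+, with 5 of 15 tested genes (21 listed) higher and 2 lower (1 without delE6/+ replicate 1 or with DESeq2). *S100a4* had 0 reads, whereas *Fn1*, which encodes fibronectin, had 16581 to 25046 reads, *Tagln* 4299 to 9478 and *Col1a1* 172 to 282 in the 4 delE6 libraries. In WT the fibroblast genes summed to 1742 and 1769 CPM, above both delE6 genotypes. The part of such cells in the differences was not tested.

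Chromosome 3 stood apart. Of its 848 tested genes 336 (39.6%) were called, 251 higher in delE6/+ (29.6%) and 85 lower (10.0%), and the genotypes did not overlap for 79.6%. The median log2 fold change was 0.307, against -0.0536 to 0.0928 over the other 18 autosomes. Measured from WT, the chromosome's median was 0.322 and 0.316 in the delE6/+ libraries and 0.0117 and -0.00556 in the delE6/delE6 libraries. Genes of chromosome 3 held 5.12% and 5.06% of the reads of the delE6/+ libraries, 4.05% and 4.03% in delE6/delE6, and 4.01% and 3.99% in WT. The displacement is therefore in the delE6/+ libraries, in both replicates. Whether these cells carry more or fewer copies of the chromosome was not tested, since RNA alone was read.

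**Figure D4:**
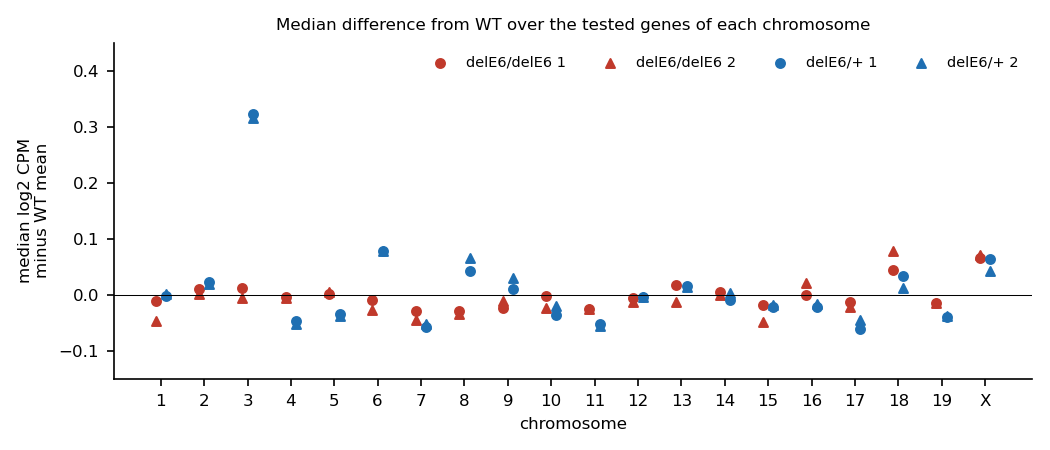
Median over the tested genes of each autosome and the X chromosome of log2 CPM minus the WT mean, for each delE6/delE6 (red) and delE6/+ (blue) library. Both delE6/+ libraries reach 0.322 and 0.316 on chromosome 3, and the medians of the other chromosomes lie close to 0 in all 4 libraries.

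Along chromosome 3 the difference had 3 levels, with limits that were chosen after values were seen. In the first 50 Mb, 139 genes had a median of 0.0862, with 12 higher and 8 lower. From *Noct* (start 51224447) to *Slc39a8* (start 135825279) 616 genes had a median of 0.439, a 1.36-fold difference, with 238 higher and 24 lower, and 488 of the 616 were positive. From *Ppp3ca* (start 136670124) to *Wls* (start 159839672) 93 genes had a median of -0.687, a ratio of 0.621, with 1 higher and 53 lower, and 81 of the 93 were negative. The delE6/+ libraries stood at 0.453 and 0.441 from WT in the middle stretch and at -0.591 and -0.543 in the distal one. The delE6/delE6 libraries stood between -0.0135 and 0.0713 in both. The middle stretch held 4.35% and 4.29% of the reads of delE6/+ and 3.08% in each delE6/delE6 library, and the distal stretch 0.303% and 0.305% against 0.501% and 0.475%. Of 227 bins of 10 Mb with at least 20 tested genes on other chromosomes, 2 had a median past 0.3 in size, whereas 9 of the 14 such bins of chromosome 3 did.

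The turn from higher to lower was placed at *Slc39a8* after values were seen, so the signs of the genes beside it describe it and do not test it. The 8 genes with at least 2 CPM up to and including *Slc39a8* all had positive log2 fold changes, from 0.291 to 1.81, and the 8 from *Ppp3ca* on all had negative ones, from -0.779 to -0.258. *Slc39a8*, a zinc and manganese transporter, was at 2.63 and 2.2 CPM in WT, 2.15 and 2.27 CPM in delE6/delE6 and 9.05 and 6.5 CPM in delE6/+. *H2afz*, which encodes a variant of histone H2A and lies just past the turn, was at 344 and 337 CPM in WT, 433 and 455 CPM in delE6/delE6 and 259 and 259 CPM in delE6/+ (log2 fold change -0.78, standard error 0.0439, edgeR adjusted p = 5.5e-08).

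**Figure D5:**
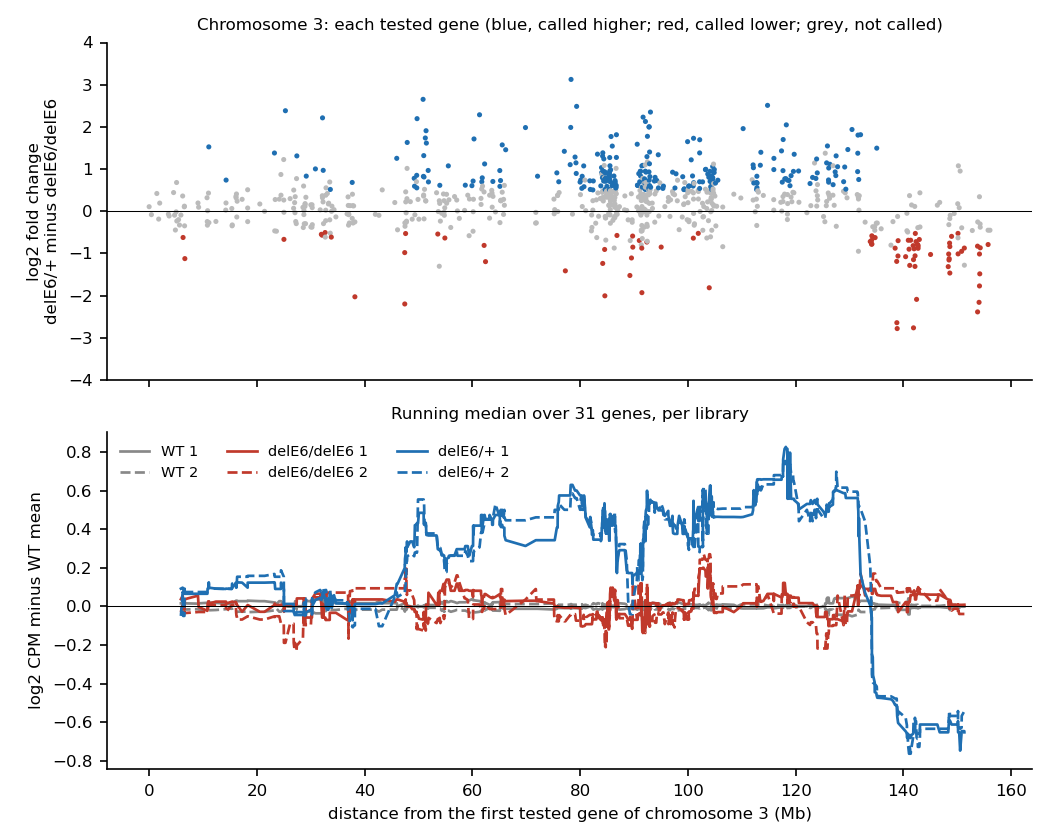
Chromosome 3, with position as the distance from the first tested gene. Top, log2 fold change of each tested gene (blue, called higher in delE6/+; red, called lower; grey, not called); bottom, running median over 31 genes of log2 CPM minus the WT mean in each WT (grey), delE6/delE6 (red) and delE6/+ (blue) library. Both delE6/+ lines leave 0 after the first 50 Mb, stay positive through the middle stretch, whose median is 0.439 between genotypes, and turn negative in the distal stretch, whose median is -0.687.

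The largest rises on chromosome 3 were not uniform in size and went beyond the level of the stretch. *Frem2*, a protein of the extracellular matrix that holds epithelia to the layer under them (chromosome 3, 53513938 to 53657355), was at 186 and 185 CPM in WT, 148 and 134 CPM in delE6/delE6 and 624 and 666 CPM in delE6/+, a 4.58-fold difference (log2 fold change 2.19, standard error 0.0559, edgeR adjusted p = 1.44e-10), the smallest adjusted p of all tested genes. *Txnip*, the thioredoxin-interacting protein that limits glucose uptake (chromosome 3, 96557957 to 96561883), was at 460.1 and 408 CPM in WT, 233 and 143 CPM in delE6/delE6 and 774 and 724 CPM in delE6/+ (log2 fold change 2.00, standard error 0.151, edgeR adjusted p = 5.38e-07). Its 2 clones of delE6/delE6 were unequal, both below WT. *Pdzk1* (2.35) and the transporter *Abca4* (2.05) complete the 4, and *Col11a1*, a collagen chain, was at 9.02 and 9.6 CPM in WT, 4.09 and 3.85 CPM in delE6/delE6 and 14.6 and 16.3 CPM in delE6/+ (1.96). Of the 4 largest falls, *Gbp2*, *Lpar3*, a receptor of lysophosphatidic acid (-2.09), and *Ankrd13c* lie in the distal stretch. *Ankrd13c* was at 49.2 and 46.2 CPM in WT, 58.8 and 65.3 CPM in delE6/delE6 and 21.7 and 22.7 CPM in delE6/+ (log2 fold change -1.48, standard error 0.0722, edgeR adjusted p = 2.55e-08). *Csf1*, the macrophage colony-stimulating factor (chromosome 3, 107741048 to 107760469), lies in the middle stretch, against the direction of its neighbours, at 16.2 and 17.3 CPM in WT, 23.7 and 24.8 CPM in delE6/delE6 and 6.55 and 7.28 CPM in delE6/+ (log2 fold change -1.81, standard error 0.145, edgeR adjusted p = 8.56e-07).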

How the data were processed

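Poly(A) RNA of 8 libraries, 2 for each of 4 genotypes, was read. The authors mapped the reads with STAR 2.7.2a to mm10 (GRCm38) and deposited its counts of reads per gene, whole numbers with no normalization or filter (DESeq2 1.40.2 is also named in the submitters' processing notes). The opposite-strand counts were used, and STAR's 4 summary lines were left out. Symbols and positions came from GENCODE M21, where 48058 of 48440 identifiers were found. The 50 tested genes without a chromosome there were counted outside chromosome 3.

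The edgeR package (4.0.16, in R 4.3.3) was used with TMM and the filterByExpr defaults (minimum count 10, minimum total 15). All 8 libraries entered a quasi-likelihood fit in which each genotype had its own coefficient, without a replicate block. A gene was called at a Benjamini-Hochberg adjusted p under 0.05 over 17049 genes and a log2 fold change past 0.5. The steps were tested on simulated counts. Depth (24618587 to 28445952 reads a library) limits weak genes. CPM are not scaled to gene length, so levels are compared between libraries and not between genes. Alternatives used DESeq2 1.42.0 or edgeR with other settings. Tables were made with pandas 2.3.3 in Python 3.11.15 (numpy 2.4.6), and plots with matplotlib 3.10.9.

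Named genes are *Tbxt*, the 10 largest rises and 10 largest falls outside chromosome 3 and the 4 of each on it (called, no overlap, mean of at least 2 CPM over the 4 delE6 libraries), up to 4 called members of each list with the smallest adjusted p, and other list members that show a role or a direction. The comparison, the lists and the tests were chosen with earlier results of these data known, and the lists are described by counts and medians alone. Some list members are not reported here by name.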

Additional observations from a re-analysis of the deposited data

How the results depend on the processing

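TREAT, which tests for changes beyond 0.5 on the log2 scale, called fewer genes by its construction: 1548 in all (790 higher and 758 lower in delE6/+), 205 on chromosome 3 (153 and 52) and 1343 outside it (637 and 706). Under the other settings these counts stayed within 1.5 times. They were DESeq2's Wald test, 3022 genes, DESeq2's size factors, TMM without chromosome 3, at least 10 reads in every library, no filter, only the 4 delE6 libraries, unstranded counts and leaving out each library. Leaving out 1 library gave 2915 to 4604 genes in all, 300 to 361 on chromosome 3 and 2607 to 4243 outside it. The total was lowest without delE6/delE6 replicate 2 and highest without delE6/delE6 replicate 1. Of 84 counts of list members, 46 moved by over 1.5 times under TREAT, 12 with DESeq2, 16 to 21 when 1 library was left out and 1 to 4 under each other setting. Of 163 named genes 0 changed sign, and 34 lost their call under TREAT. Of these, 13 also lost it without delE6/delE6 replicate 2, 9 and 7 without delE6/+ replicate 1 and 2, 3 without delE6/delE6 replicate 1 and 2 with DESeq2. The other 129 kept theirs in each of the 13 alternatives that tested them, and *Tbxt* was among the 34. Without the filter the median of chromosome 3 was 0.201 and that of its distal stretch -0.46. The genotypes share replicate numbers in the labels, but nothing says that a number marks a shared batch, and the deviations of same-numbered delE6/+ and delE6/delE6 libraries correlated at 0.018. With the replicate number as a block 3745 genes were called (1886 higher and 1859 lower), and none of the 163 genes lost its call, whereas *H19*, at the size threshold, did. With a lone library left in a genotype, that library is assumed to vary like the others. Counts of 20 to 60 reads, as for *Tbxt*, limit the precision, as do 2 libraries a genotype.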

Other observations

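Some families were not described above. Numbered zinc finger genes (Zfp), a large family of DNA-binding repressors, had 60 of 370 tested members (391 listed) lower in delE6/+ (16.2% against 11.0% of all genes) and 12 higher (3.24% against 11.2%), with a median of -0.175 and 116 of the 370 positive. Against WT, 76 of them were called higher and 7 lower in delE6/delE6, and 21 higher and 9 lower in delE6/+. The count of lower genes ranged from 33 without delE6/delE6 replicate 2 to 88 without delE6/delE6 replicate 1. *Zfp809*, which silences retroviral sequence, was at 22.1 and 23.6 CPM in delE6/delE6 and 12.3 and 12.3 CPM in delE6/+ (log2 fold change -0.89, standard error 0.0852, edgeR adjusted p = 3.67e-06), and *Zfp608* was higher, at 11.0 and 13.5 CPM in delE6/delE6 and 34.0 and 31.5 CPM in delE6/+ (log2 fold change 1.42, standard error 0.100, edgeR adjusted p = 3.23e-07). Germline genes that DNA methylation silences in somatic cells had 11 of 23 higher (47.8% against 11.2% of all genes) and 2 lower (8.70% against 11.0%), with a median of 0.448. Of the 4 on chromosome 3, 3 were called higher, and outside that chromosome 8 were higher, with a median of 0.435. Fewer were called higher without delE6/delE6 replicate 2 and more without delE6/delE6 replicate 1. Relative to WT, 4 of the 23 germline genes were called higher and 5 lower in delE6/+, and 0 higher and 11 lower in delE6/delE6. Their medians against WT were -0.156 in delE6/+ and -0.422 in delE6/delE6. *Sohlh2*, a germ cell transcription factor on chromosome 3, was at 61.6 and 60.5 CPM in WT, 48.1 and 24.2 CPM in delE6/delE6 and 133 and 137 CPM in delE6/+ (1.91), whereas *Taf7l* on the X chromosome was lower, at 73.9 and 82.7 CPM in WT, 94.2 and 84.8 CPM in delE6/delE6 and 37.3 and 37.0 CPM in delE6/+ (log2 fold change -1.27, standard error 0.0696, edgeR adjusted p = 4.94e-08).

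Of 7 listed Y-linked genes 5 were tested, 2 were lower in delE6/+ and none higher by edgeR, by DESeq2 or at an unadjusted p under 0.05. *Ddx3y*, an RNA helicase, was at 61.2 and 60.3 CPM in WT, 81.1 and 76.1 CPM in delE6/delE6 and 44.9 and 44.3 CPM in delE6/+ (log2 fold change -0.82, standard error 0.0613, edgeR adjusted p = 5.2e-07), and *Eif2s3y*, a translation initiation factor, at 37.9 and 36.6 CPM in WT, 75.7 and 66.8 CPM in delE6/delE6 and 44.8 and 46.5 CPM in delE6/+ (log2 fold change -0.64, standard error 0.113, edgeR adjusted p = 0.000474). Solute carriers had 67 of 276 tested members (361 listed) higher (24.3% against 11.2% of all genes) and 25 lower (9.06% against 11.0%). Fewer of them were called lower without delE6/delE6 replicate 2. *Slc38a3*, a glutamine transporter, was at 15.3 and 16.1 CPM in WT, 11.5 and 9.97 CPM in delE6/delE6 and 32.4 and 30.4 CPM in delE6/+ (log2 fold change 1.55, standard error 0.0929, edgeR adjusted p = 8.75e-08). Histone genes had 7 of 51 tested members (81 listed) higher and 1 lower (15.7% called, below the 22.2% of all genes), with 3 higher without delE6/delE6 replicate 2, 4 with DESeq2 and 11 without delE6/delE6 replicate 1, and with 3 lower without delE6/+ replicate 1 and 2 without delE6/delE6 replicate 1. Of the 13 genes encoded in mitochondria 2 were lower (15.4%), *mt-Nd1* at 2486 and 2115 CPM in delE6/delE6 and 1241 and 1573 CPM in delE6/+ and *mt-Nd6* at 22.1 and 15.0 CPM in delE6/delE6 and 11.3 and 11.8 CPM in delE6/+, with 1 to 4 lower when a library was left out, and 1 higher without delE6/delE6 replicate 1. *mt-Nd6* was not called without delE6/+ replicate 1 (-0.64) or delE6/delE6 replicate 1 (-0.38), nor with unstranded counts (-0.31). Among kinds of transcripts, long intergenic non-coding RNAs were called in 31% of 261 cases (26 higher and 55 lower), antisense transcripts in 27.3% of 267 (28 higher and 45 lower), protein coding genes in 23.3% of 14251 and processed pseudogenes in 9.70% of 1547.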
